A study of Mus musculus with 34 samples.

Results

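The genes of de novo lipogenesis examined here are 10 of the 22367 protein-coding genes of the mouse annotation: *Srebf1*, *Mlxipl*, *Thrsp*, *Acly*, *Me1*, *Acaca*, *Acacb*, *Fasn*, *Elovl6* and *Scd1*. They were taken for their function in the pathway, with earlier results of these data already known. A peak was assigned to a gene when its centre lay between 50 kb upstream of the gene start and 2 kb past the gene end, and 62 of the 28631 HDAC3 or PROX1 peaks of the genome met this rule. No peak fell in the windows of more than 1 of the 10 genes. The peaks come from ChIP-seq, which sequences the DNA that an antibody against a factor brings down from cross-linked chromatin. The livers were from male C57B/6 mice aged 10 weeks and collected at zeitgeber time 10 (ZT10), late in the light phase. HDAC3 and PROX1 were mapped with 3 libraries each from livers labelled Control, whose genotype the labels do not give beyond that word. HNF4α was mapped with 2 libraries from livers labelled HNF4A floxed, in which the *Hnf4α* alleles carry loxP sites but were not deleted. By the methods of the study these floxed control mice received an AAV8 vector expressing EGFP from the TBG promoter, which is active in hepatocytes. Whether the Control livers received a vector is not given in the sources used here. The authors pooled the replicates of each factor before calling peaks, so that there is 1 list per factor, 3 lists in all. The read depth behind a peak is therefore unknown, no spread between livers can be given, and no difference below was tested. The lists hold binding sites only, and expression of the 10 genes was not analysed here.

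De novo lipogenesis builds fatty acids from the carbon of sugars. Citrate exported from mitochondria is split into acetyl-CoA, which is carboxylated to malonyl-CoA and condensed into palmitate with reducing power from NADPH, and palmitate is then elongated and desaturated. In the liver the pathway rises with feeding, insulin and sugar, mainly through the transcription factors SREBP-1c and ChREBP. HDAC3 is the histone deacetylase of the NCoR corepressor complexes, PROX1 is a homeodomain protein that often acts as a corepressor in hepatocytes, and HNF4α is a nuclear receptor that binds and maintains many hepatocyte genes.

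HDAC3 and PROX1 peaks are 200 bp wide, and those with identical coordinates in both lists are called co-bound. A co-bound peak with at least 50% of its length under a single HNF4α peak is called triply bound. Sequence is shown for 12 of the co-bound peaks: for each gene but *Acly* the one under the HNF4α peak with the highest score, and for *Acacb*, *Elovl6* and *Thrsp* the one in the promoter. They show which recognition sequences lie in the DNA printed. Each is read 5′ to 3′ on the strand of its gene from the NCBIM37 assembly, which is mm9. Capitals mark any match, on either strand, to 6 consensus sequences. The first is the HNF4α consensus of the motif analysis of the study, with at most 2 mismatches. The others are the C/EBP site TTGCGCAA with at most 1 mismatch, the sterol regulatory element (SRE) TCACNCCAC bound by SREBP, the E-box CACGTG, and direct repeats of the nuclear receptor hexamer spaced by 4 bp (DR4, at most 2 mismatches) or 2 bp (DR2, at most 3 mismatches). The DR2 consensus was also read from the motif analysis of the study. It sets letters before the repeat and between the hexamers, where its mismatches count too. For DR4 any letters may lie between the hexamers, so the DR2 and DR4 shares are unlike measures. Matches of different consensus sequences may overlap and then form a single run of capitals. The stretch of a peak that lies in an exon is left out, which shortened the *Srebf1* sequence to 39 bp and the *Thrsp* promoter sequence to 160 bp. The *Srebf1* stretch lies outside the HNF4α peak, which spans chr11:60054138-60054297. The *Thrsp* upstream sequence holds only part of its HNF4α peak, which spans chr7:104567382-104567535.
*Srebf1* upstream peak, stretch outside the exon, chr11:60054033-60054071, minus strand: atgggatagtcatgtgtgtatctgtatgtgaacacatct
*Mlxipl* intron peak, chr5:135584224-135584423, plus strand: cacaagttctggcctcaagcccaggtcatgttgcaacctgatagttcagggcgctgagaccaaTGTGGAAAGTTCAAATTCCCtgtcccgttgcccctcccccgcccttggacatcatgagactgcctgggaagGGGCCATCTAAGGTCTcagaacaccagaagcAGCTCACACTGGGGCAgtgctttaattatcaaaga
*Thrsp* upstream peak, chr7:104567253-104567452, minus strand: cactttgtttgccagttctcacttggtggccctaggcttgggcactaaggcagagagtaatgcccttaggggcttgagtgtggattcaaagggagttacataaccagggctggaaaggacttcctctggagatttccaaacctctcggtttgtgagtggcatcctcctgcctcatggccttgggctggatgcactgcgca
*Thrsp* promoter peak, stretch before the gene start, chr7:104566241-104566400, minus strand: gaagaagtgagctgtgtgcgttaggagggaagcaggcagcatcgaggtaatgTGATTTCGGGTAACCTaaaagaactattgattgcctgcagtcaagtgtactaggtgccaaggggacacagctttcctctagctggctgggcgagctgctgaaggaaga
*Me1* upstream peak, chr9:86601534-86601733, minus strand: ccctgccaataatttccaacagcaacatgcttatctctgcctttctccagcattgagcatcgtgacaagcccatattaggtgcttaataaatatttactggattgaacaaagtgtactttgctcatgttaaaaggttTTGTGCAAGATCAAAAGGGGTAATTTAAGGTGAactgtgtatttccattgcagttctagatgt
*Acaca* intron peak, chr11:83959679-83959878, plus strand: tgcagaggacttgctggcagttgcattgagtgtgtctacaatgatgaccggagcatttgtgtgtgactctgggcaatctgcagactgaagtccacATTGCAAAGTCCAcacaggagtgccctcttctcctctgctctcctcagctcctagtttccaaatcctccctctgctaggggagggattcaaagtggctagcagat
*Acacb* upstream peak, chr5:114581720-114581919, plus strand: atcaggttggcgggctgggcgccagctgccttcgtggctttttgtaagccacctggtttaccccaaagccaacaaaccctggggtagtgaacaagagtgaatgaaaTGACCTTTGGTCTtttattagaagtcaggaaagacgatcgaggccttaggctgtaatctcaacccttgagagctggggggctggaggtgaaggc
*Acacb* promoter peak, chr5:114596118-114596317, plus strand: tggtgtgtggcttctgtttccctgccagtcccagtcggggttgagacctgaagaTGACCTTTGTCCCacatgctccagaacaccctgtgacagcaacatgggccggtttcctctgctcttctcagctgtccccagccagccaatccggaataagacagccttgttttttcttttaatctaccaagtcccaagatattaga
*Fasn* upstream peak, chr11:120693443-120693642, minus strand: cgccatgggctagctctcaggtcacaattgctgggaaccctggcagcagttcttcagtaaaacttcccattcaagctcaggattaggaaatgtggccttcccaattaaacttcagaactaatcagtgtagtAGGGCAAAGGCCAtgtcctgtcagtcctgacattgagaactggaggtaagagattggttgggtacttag
*Elovl6* promoter peak, chr3:129235030-129235229, plus strand: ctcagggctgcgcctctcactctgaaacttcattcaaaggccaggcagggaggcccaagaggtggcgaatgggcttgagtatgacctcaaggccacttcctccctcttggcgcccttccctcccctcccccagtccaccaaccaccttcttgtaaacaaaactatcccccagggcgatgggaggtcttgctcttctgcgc
*Elovl6* intron peak, chr3:129267811-129268010, plus strand: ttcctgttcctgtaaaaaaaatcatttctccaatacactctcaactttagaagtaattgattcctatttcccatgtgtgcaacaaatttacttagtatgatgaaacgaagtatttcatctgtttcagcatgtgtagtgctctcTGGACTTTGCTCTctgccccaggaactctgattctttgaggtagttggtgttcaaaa
*Scd1* upstream peak, chr19:44490855-44491054, minus strand: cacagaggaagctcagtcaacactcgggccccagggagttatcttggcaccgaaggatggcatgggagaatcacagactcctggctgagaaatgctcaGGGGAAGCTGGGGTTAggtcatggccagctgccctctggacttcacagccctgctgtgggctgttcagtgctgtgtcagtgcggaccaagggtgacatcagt

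In these sequences the HNF4α consensus was matched in the peaks of *Acaca*, *Fasn*, *Elovl6* (the intron peak) and *Mlxipl*, and in both *Acacb* peaks. The *Acaca* match reads ATTGCAAAGTCCA, with 1 mismatch, on the strand of the gene. The *Fasn* match AGGGCAAAGGCCA also has 1 mismatch and also lies on the strand of the gene. The *Elovl6* match, printed above in the opposite orientation, reads AGAGCAAAGTCCA with 1 mismatch. The *Acacb* matches, AGACCAAAGGTCA upstream and GGGACAAAGGTCA in the promoter, have 2 mismatches each and lie on the opposite strand. *Mlxipl* holds a pair of overlapping HNF4α matches with 2 mismatches each and, apart from them, a pair of DR4 matches. The capitals in the *Me1* peak are 1 C/EBP match, which reads TTGCACAA on the opposite strand, and 2 DR4 matches that run into it. The *Scd1* peak and the *Thrsp* promoter peak hold 1 DR4 match each. No match to any of the 6 was found in the *Thrsp* upstream peak, the *Elovl6* promoter peak or the short *Srebf1* stretch, which says only that these letters are not in these windows.

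All 10 genes had at least 1 co-bound peak in their window, where 38.4% of all protein-coding genes had one. Of the 62 peaks, 44 were co-bound, 16 were PROX1-only and 2 were HDAC3-only. The co-bound share was 71.0% (95% Wilson interval 58.7 to 80.8), beside 70.0% of all HDAC3 and PROX1 peaks. The intervals cover counting error only and treat neighbouring peaks as independent. Co-bound peaks per gene ranged from 1 for *Srebf1* to 9 for *Elovl6*, with a median of 4, beside a median of 0 over all genes. *Acacb* had 7 co-bound peaks, *Mlxipl* and *Acly* had 6 each, *Acaca* and *Thrsp* had 4 each, *Me1* had 3, and *Fasn* and *Scd1* had 2 each. A longer gene has a longer window, and the windows of the 10 genes had a median length of 93.6 kb beside 67.4 kb for all genes. Per 100 kb of window the order changed. *Mlxipl* had 7.19 co-bound peaks per 100 kb and *Thrsp* 7.04, more than 95.4% and 95.2% of all genes. *Acaca*, the longest gene of the set, had 1.23 and *Srebf1* 1.32, more than 68.0% and 69.0% of all genes. Summed over the windows, the 10 genes had 3.49 co-bound peaks per 100 kb and all genes 1.25. All genes, here and throughout, are the protein-coding genes without regard to whether they are active in liver. No set of liver-active genes was compared.

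**Figure D1:**
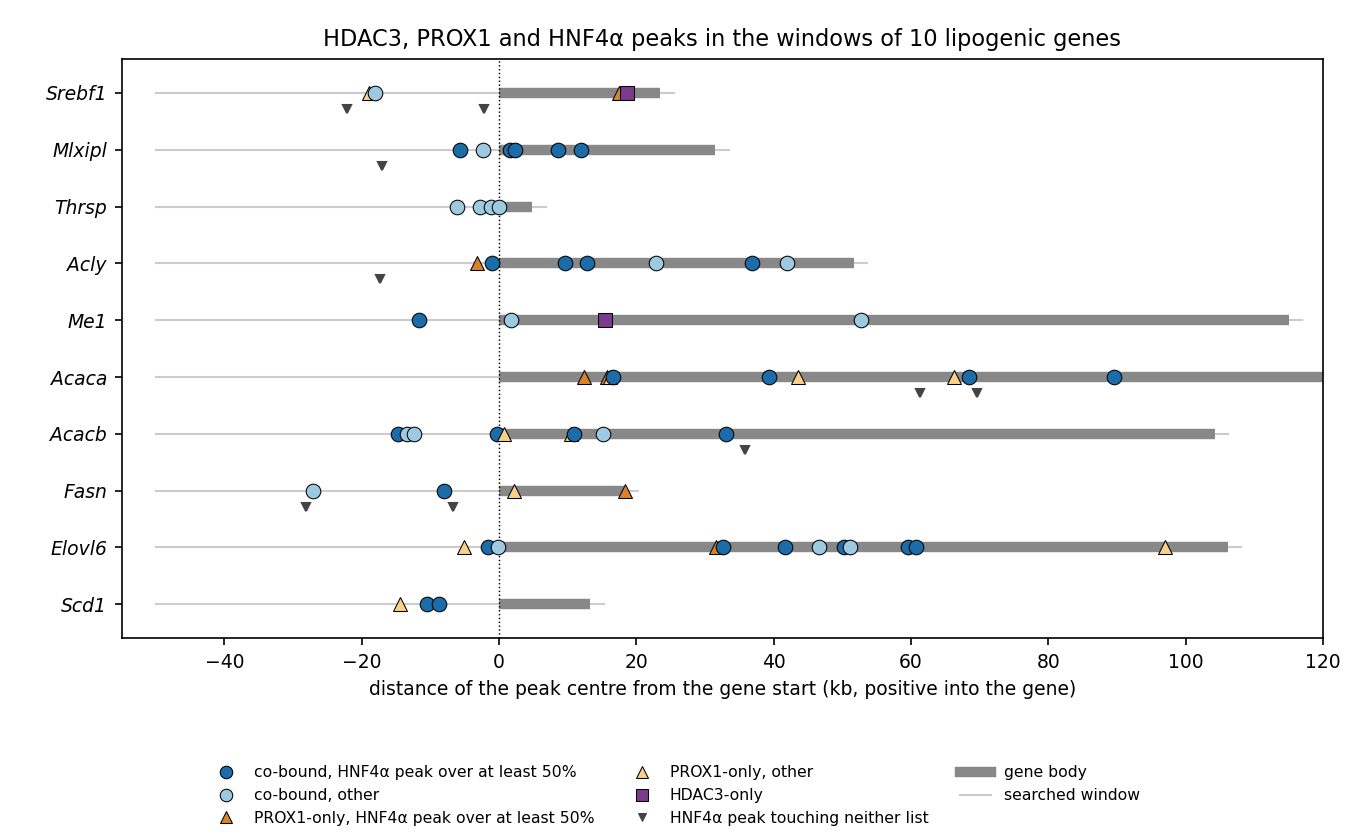
Centres of the peaks in the 10 windows by distance from the gene start in kb, with the gene body as a thick grey line and the searched window as a thin one. Circles are co-bound peaks, triangles PROX1-only peaks and squares HDAC3-only peaks. Circles and triangles are dark where an HNF4α peak covers at least 50%. The squares have a single colour, and no HNF4α peak touches them. The *Acaca* gene body and 1 of its HNF4α peaks, at 224 kb, run past the right edge, and all 4 *Thrsp* peaks lie before the gene start.

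**Figure D2:**
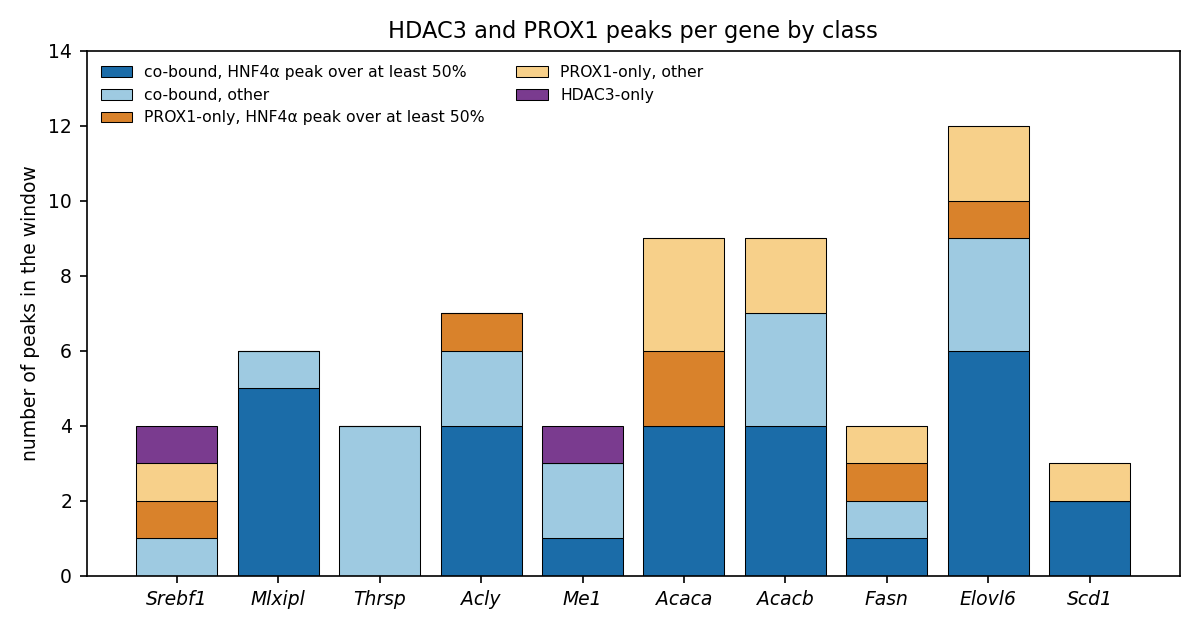
Number of HDAC3 and PROX1 peaks in the window of each gene, stacked by class and by cover from an HNF4α peak. *Elovl6* has the most peaks, 12, and *Thrsp* is the gene with 4 co-bound peaks and no other.

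Triply bound peaks were found at 8 of the 10 genes, where 31.1% of all protein-coding genes had one. The 2 genes without one were *Srebf1* and *Thrsp*. In all, 27 of the 44 co-bound peaks were triply bound, 61.4% (46.6 to 74.3), and the share over all 20039 co-bound peaks was 61.3%. Of the other 17, 2 touched an HNF4α peak over less than 50% of their length and 15 touched none. PROX1-only peaks lay in the windows of 7 of the 10 genes, beside 25.2% of all genes, and 6 of these 16 peaks were covered by HNF4α, 37.5% (18.5 to 61.4) beside 36.7% of all PROX1-only peaks. HDAC3-only peaks lay in the windows of 2 of the 10 genes, *Me1* and *Srebf1*, beside 7.40% of all genes.

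The windows cover whole gene bodies, so the rule itself favours DNA inside genes. The centres of 30 of the 44 co-bound peaks were in introns, 68.2% (53.4 to 80.0) beside 61.4% of the co-bound peaks in the window of any protein-coding gene, and 25 of them were in introns of the lipogenic gene itself. Another 13 were intergenic and 1 was in an exon. Relative to the gene start, 19 lay upstream and 25 downstream, at a median distance of 12.6 kb. For 36 of the 44 the nearest protein-coding start was that of the lipogenic gene, and the other 8 were nearer to a start of another gene. A co-bound peak within 1 kb of a transcript start was found at 3 of the 10 genes, *Acacb*, *Elovl6* and *Thrsp*, beside 6.25% of all protein-coding genes. Within 2 kb it was 6 of the 10, a limit at which the share of all protein-coding genes was not counted. A PROX1-only peak lay within 1 kb of a start at 2 of the 10, *Acaca* and *Acacb*, beside 2.53% of all protein-coding genes.

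*Srebf1* encodes SREBP-1, whose SREBP-1c form activates most enzymes of the pathway. The gene lies on the minus strand of chromosome 11 from 60012591 to 60036083. Its single co-bound peak was centred 18.1 kb upstream, in an exon of the neighbouring gene *Tom1l2*, whose transcript start was also the nearest. An HNF4α peak with a score of 90.5 covered 47.5% of it, just under the limit of 50%, and 93.3% of HNF4α peaks had a lower score. Seen from the HNF4α peak, HDAC3 and PROX1 covered more than 50%. Of the 2 PROX1-only peaks, 1 was centred 19.0 kb upstream in *Tom1l2* and touched no HNF4α peak. The other was 17.4 kb inside *Srebf1*, where HNF4α covered 77.0% with a score of 44.3. An HDAC3-only peak at chr11:60017429-60017628, in an intron of *Srebf1* 18.6 kb past its start, touched no HNF4α peak. Its DNA held a match to the HNF4α consensus and a DR4 match, found in 21.2% and 29.3% of all HDAC3-only peaks. No HDAC3 or PROX1 peak lay within 1 kb of a *Srebf1* start, and the HNF4α peak closest upstream of the gene, at 2.27 kb with a score of 45.2, was 15780 bp from any HDAC3 or PROX1 peak of the window.

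*Mlxipl* encodes ChREBP, the glucose-responsive activator of glycolytic and lipogenic genes, on the plus strand of chromosome 5 from 135582761 to 135614254. All 6 of its peaks were co-bound, and 5 were triply bound. They spread from 5.75 kb upstream to 11.9 kb inside the gene, and for each of them *Mlxipl* was the nearest gene. The HNF4α scores were 92.4 at the peak 5.75 kb upstream, 100.4 at 1.56 kb, 49.5 at 2.27 kb, 46.2 at 8.61 kb and 48.1 at 11.9 kb. Each was above 41.9, the median score of the HNF4α list. The last of them was covered over exactly 50% and so stood at the limit of the rule. The peak without HNF4α was centred 2.40 kb upstream. DR2 was matched in the peak 5.75 kb upstream, which also held a C/EBP match.

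*Thrsp* encodes the thyroid hormone responsive spot 14 protein, which promotes fatty acid synthesis. It is the shortest gene of the set, on the minus strand of chromosome 7 from 104561448 to 104566240. Its 4 peaks were all co-bound, all upstream of the gene start and none triply bound. They were centred 6114, 2815, 1113 and 61 bp upstream. A single HNF4α peak lay in the whole window. It had a score of 62.7 and covered 35.5% of the co-bound peak at 1113 bp. With any contact counted in place of 50% of the peak, this peak and the *Srebf1* peak counted as triply bound and all 10 genes had one. The share of all protein-coding genes with one by any contact was not counted. DR4, the spacing of hexamers used by thyroid hormone receptors and liver X receptors, was matched in 3 of the 4 *Thrsp* peaks, the promoter peak among them, and in 22.6% of all co-bound peaks. With 1 mismatch in place of 2 it was matched in 1 of the 4, beside 3.58% of all co-bound peaks.

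*Acly* encodes ATP citrate lyase, which splits citrate into acetyl-CoA in the cytosol. On the minus strand of chromosome 11, from 100337667 to 100389314, it had 6 co-bound peaks, 5 of them in its own introns. HNF4α covered 4 of the 6, with scores of 40.5 at 1.01 kb upstream, 73.5 at 9.59 kb, 90.5 at 12.8 kb and 39.6 at 36.9 kb. The intron pair at 9.59 and 12.8 kb had the higher scores. The peak closest to the start was centred 1013 bp from it, just outside the promoter. A PROX1-only peak 3.23 kb upstream was also under an HNF4α peak, with a score of 28.7. An E-box and a C/EBP match lay in the co-bound peak at 22.9 kb, which HNF4α did not touch.

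*Me1* encodes cytosolic malic enzyme, a source of NADPH for the synthase. It lies on the minus strand of chromosome 9 from 86474970 to 86589947. A single HNF4α peak lay in its window of 167 kb, with a score of 59.8. It covered 79.0% of the co-bound peak 11.7 kb upstream, the only co-bound peak of *Me1* outside the gene. The other 2 co-bound peaks, 1.78 and 52.7 kb inside the gene, touched no HNF4α peak, and the former held an E-box. *Me1* also had an HDAC3-only peak, at chr9:86574456-86574655 in an intron 15.4 kb past the start, with a C/EBP match and no HNF4α. Across the genome 14.0% of HDAC3-only peaks were covered by HNF4α and 5.63% held a C/EBP match. Neither of the 2 HDAC3-only peaks held a DR2 match, found in 7.45% of all HDAC3-only peaks.

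*Acaca* encodes acetyl-CoA carboxylase 1, which makes the cytosolic malonyl-CoA used for synthesis. Its gene body, on the plus strand of chromosome 11 from 83943174 to 84215153, made its window the longest at 324 kb. It had 5 PROX1-only peaks, the most of the 10 genes, beside 4 co-bound peaks. All 9 peaks lay inside the gene, and the 50 kb upstream held none. HNF4α covered all 4 co-bound peaks, with scores of 99.9 at 16.6 kb, 58.9 at 39.3 kb, 56.5 at 68.5 kb and 40.5 at 89.5 kb. The strongest HNF4α peak of the window, with a score of 103.7, lay over a PROX1-only peak at 12.3 kb instead. PROX1-only peaks also lay 164 bp past the start of transcript Acaca-001, in an exon, and 540 bp past that of Acaca-201, in an intron, and HNF4α touched neither. The window thus combined triply bound introns with starts of transcripts that carried PROX1 without a listed HDAC3 peak.

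*Acacb* encodes acetyl-CoA carboxylase 2, whose malonyl-CoA at the mitochondrial surface restrains fatty acid oxidation. It lies on the plus strand of chromosome 5 from 114596544 to 114700770. Of its 7 co-bound peaks, 4 were triply bound. The promoter peak, centred 326 bp upstream, was covered over 54.0% by an HNF4α peak with a score of 38.2. A PROX1-only peak followed 728 bp past the start and did not touch HNF4α. The highest HNF4α score of the window, 56.5, belonged to the peak 14.7 kb upstream. That peak and its neighbours at 13.4 and 12.4 kb lay in introns of *Ung*, which encodes uracil DNA glycosylase, and were nearer to the start of *Ung*, the first of them by its distance of 182 bp. They are counted for *Acacb* by position alone. The remaining triply bound peaks, at 10.9 and 33.1 kb inside *Acacb*, had scores of 33.0 and 23.1, below the median of the list.

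*Fasn* encodes fatty acid synthase, which assembles palmitate. It lies on the minus strand of chromosome 11 from 120667254 to 120685492. It had 2 co-bound and 2 PROX1-only peaks, and none lay within 1 kb of its start. The co-bound peaks were 27.1 and 8.05 kb upstream, both in introns of *Ccdc57*, with *Fasn* as the gene of the nearest start. The latter was covered over 74.5% by an HNF4α peak with a score of 33.5, and the former touched none. A higher-scoring HNF4α peak, with a score of 114.0 that 317 of the 24253 HNF4α peaks exceeded, lay 6.75 kb upstream at chr11:120692159-120692318. Its centre was 1304 bp from the nearest HDAC3 or PROX1 peak, and it touched neither list. The PROX1-only peaks were 2.19 kb inside the gene, with an HNF4α consensus match and no HNF4α peak, and at the gene end, 18.3 kb from the start, under an HNF4α peak with a score of 41.5. The HNF4α consensus was matched in 32.0% of all PROX1-only peaks.

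*Elovl6* and *Scd1* finish the product: *Elovl6* encodes the elongase of palmitate and *Scd1* the desaturase that makes oleate. *Elovl6* lies on the plus strand of chromosome 3 and *Scd1* on the minus strand of chromosome 19 from 44468941 to 44482199. Of the 9 co-bound peaks of *Elovl6*, 6 were triply bound, with HNF4α scores from 32.0 to 119.7. The score of 119.7, at the intron peak 32.6 kb past the start, was the highest of all HNF4α peaks in the 10 windows. A PROX1-only peak 31.6 kb past the start, close to it, was also covered, with a score of 44.8. The *Elovl6* promoter peak, 174 bp upstream, touched no HNF4α peak, whereas the next one, at 1.68 kb upstream, lay under a score of 85.8. At *Scd1* both co-bound peaks were upstream and triply bound, with scores of 35.3 at 10.5 kb and 76.8 at 8.76 kb. A PROX1-only peak lay 14.4 kb upstream without HNF4α, and the *Scd1* gene body held no peak of any list. All 3 *Scd1* peaks held a DR4 match, found in 22.6% of all co-bound and 15.5% of all PROX1-only peaks. With 1 mismatch in place of 2, 1 of the 3 did, beside 3.58% of all co-bound peaks. At that limit the share of all PROX1-only peaks was not counted.

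**Figure D3:**
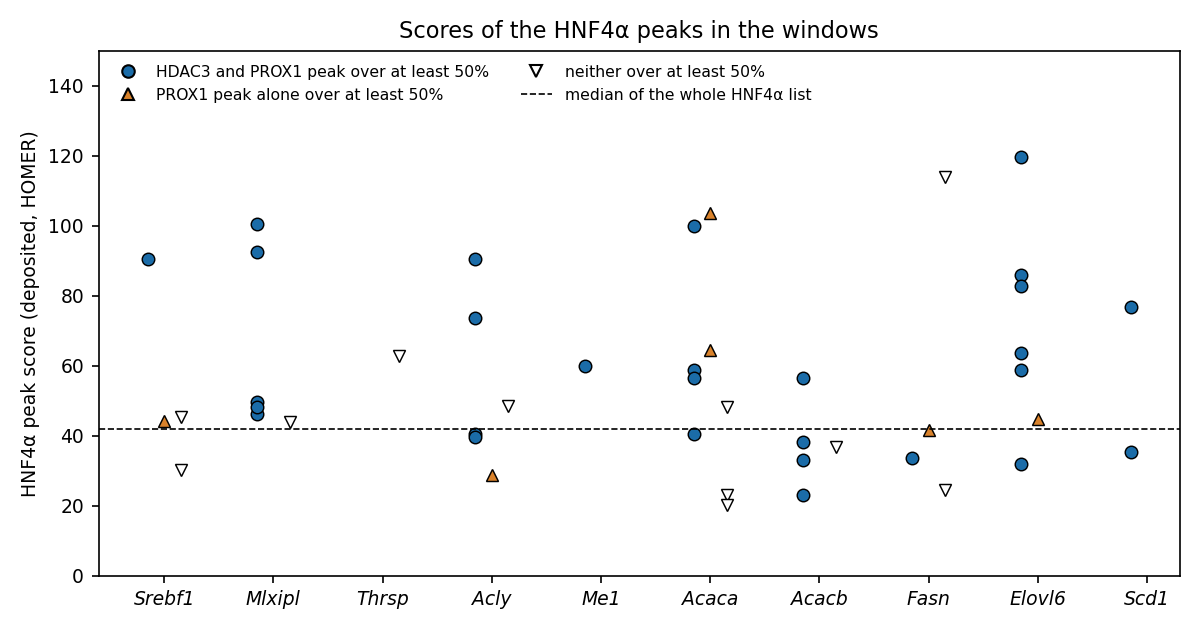
Deposited score of each of the 45 HNF4α peaks centred in the windows, by gene and by cover from HDAC3 and PROX1 peaks over at least 50% of the HNF4α peak, with the median of the whole list, 41.9, as a dashed line. The highest scores are 119.7 at *Elovl6*, with both factors, and 114.0 at *Fasn*, with neither.

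Read from the HNF4α list, 45 peaks were centred in the 10 windows. Both HDAC3 and PROX1 covered 28 of them over at least 50%, 62.2% (47.6 to 74.9) beside 53.6% of the whole list. PROX1 alone covered 6 and HDAC3 alone covered 0, classes whose shares of the whole list were not counted separately. The remaining 11, 24.4% (14.2 to 38.7), had neither, beside 33.7% of the list. Their scores ran from 20.3 to 114.0 with a median of 43.8, and those at triply bound peaks ran from 23.1 to 119.7 with a median of 56.5, beside 52.3 at all triply bound peaks. The ranges overlapped almost entirely. Of the 6 genes with an HNF4α peak that touched neither list, *Fasn* had 2, *Acaca* 3 and *Srebf1* 2, whereas *Acacb*, *Acly* and *Mlxipl* had 1 each.

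Recognition sequences were counted in the 200 bp of each peak, and a match describes the sequence, not binding. The HNF4α consensus was matched in 15 of the 44 co-bound peaks, 34.1% (21.9 to 48.9), beside 31.2% of all co-bound peaks. It was matched in 13 of the 27 triply bound peaks, 48.1% (30.7 to 66.0), and in 2 of the 17 without HNF4α, 11.8% (3.29 to 34.3). Over all co-bound peaks these shares were 41.4% and 15.1%. DR4 was matched in 12 of the 44, 27.3% (16.3 to 41.8), beside 22.6%. With 1 mismatch in place of 2 it was matched in 3, 6.82% (2.35 to 18.2), beside 3.58%. C/EBP was matched in 4, 9.09% (3.59 to 21.2), beside 12.4%. The E-box, the core of the element bound by ChREBP, was matched in 3 of the 44, 6.82% (2.35 to 18.2), beside 4.01% of all co-bound peaks. These 3 were at *Acacb*, *Acly* and *Me1*. They were 3 of the 17 peaks without HNF4α, 17.6% (6.19 to 41.0), and 0 of the 27 triply bound peaks held one, where the share over all co-bound peaks was 4.01% on either side. This split rests on 3 peaks and was not tested. In the central 100 bp the E-box share of the 44 fell to 2.27%. The SRE was matched in 0 of the 44, which allows a share of up to 6.82%, and in 0.778% of all co-bound peaks, with no mismatch allowed. With 1 mismatch these shares were 18.2% (9.51 to 32.0) and 14.9%. DR2 was matched in 2, at *Acaca* and *Mlxipl*, 4.55% (1.26 to 15.1) beside 1.66%. For each of the 6 consensus sequences at its stated number of mismatches, the interval over the 44 peaks spanned the share over all co-bound peaks.

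**Figure D4:**
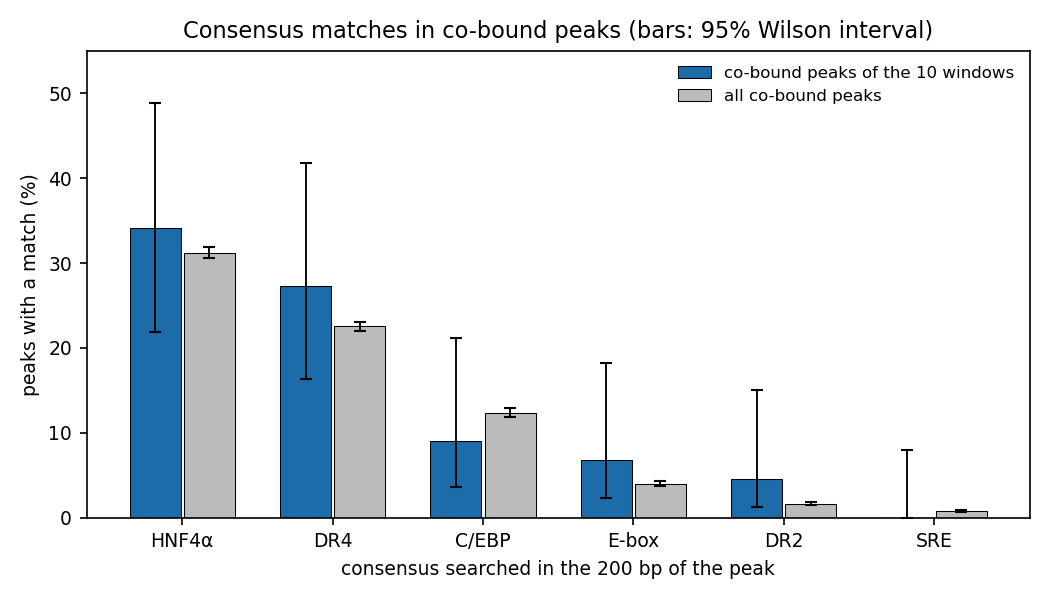
Share of the 44 co-bound peaks of the 10 windows (blue) and of all 20039 co-bound peaks (grey) that hold a match to each consensus, in percent, with 95% Wilson intervals for counting error. The HNF4α consensus has the highest share in both sets, 34.1% and 31.2%, and the SRE has none in the blue set.

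Of 24 other genes of the pathway and of its control, 19 had a co-bound peak and 16 a triply bound one, beside 38.4% and 31.1% of all protein-coding genes. PROX1-only peaks lay at 11 and HDAC3-only peaks at 6, beside 25.2% and 7.40%. Co-bound peaks per gene ranged from 0 to 11 with a median of 3. Counted once per gene, the 86 co-bound peaks of this list included 54 triply bound ones, 62.8% (52.2 to 72.3), beside 61.4% at the 10 genes and 61.3% of all co-bound peaks. That interval treats a peak shared by neighbouring windows as independent counts. Among the genes that act on SREBP, *Insig2*, which retains it in the endoplasmic reticulum, had 8 co-bound peaks and *Scap*, which escorts it to the Golgi, had 3, both with a co-bound promoter peak. *Insig1* had 6, and a PROX1-only peak in its promoter. The fatty acid desaturases *Fads1* and *Fads2*, neighbours whose windows overlap, had 6 and 9, and a peak in both windows was counted for each. The 5 genes without a co-bound peak were *Slc25a1*, the mitochondrial citrate carrier, the liver X receptor genes *Nr1h3* and *Nr1h2*, and *G6pdx* and *Pgd*, the NADPH-making enzymes of the pentose phosphate pathway. A co-bound promoter peak was found at 6 of the 24, *Scap* and *Insig2* among them, beside 6.25% of all protein-coding genes.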

How the data were processed

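HDAC3, PROX1 and HNF4α were measured by ChIP-seq in mouse liver at ZT10. According to the study's methods and the submitters' processing notes, the authors used Bowtie 0.12.7 for alignment to mm9, removed duplicates, pooled the replicates, called peaks with HOMER against IgG input, kept peaks above limits of enrichment and of normalized reads, and filtered the HNF4α list on the *Hnf4α* knockout. They deposited peak positions (HDAC3 21247, PROX1 27423 and HNF4α 24253) and, for HNF4α, a HOMER score per peak, whose scaling the list does not state. Per the study, the second factor had its own lower signal limit at overlapping peaks, so a co-bound peak need not have passed the limits of both lists. How co-bound peaks came to have identical coordinates is not stated. HDAC3 and PROX1 peaks are 200 bp wide and HNF4α peaks 85 to 168 bp. Depth per library is unknown. The 3 empty lines in each of the HDAC3 and PROX1 lists were left out, and 0 peaks lay beyond a chromosome end. These lines divide the co-bound peaks into 3 unlabelled blocks, which are pooled here. HNF4α covered 66.4%, 51.1% and 32.6% of the peaks of the blocks over the genome, and 23 of 38, 2 of 4 and 2 of 2 of those in the 10 windows.

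Peaks were assigned by their centres with GENCODE genes of NCBIM37 (mm9), and exon, intron and start follow protein-coding transcripts. A promoter was 1 kb to either side of a start. The gene start is the 5′ end of the whole gene record. Shares carry 95% Wilson intervals, and no test was made, because pooled lists hold no replicates. A count of 0 was given the upper limit of 3 counts. All 10 genes were named, with peaks within 1 kb of a start, the co-bound peak under the highest HNF4α score, every HDAC3-only peak and, added after their values were seen, further peaks of each window. In the list of 24 other genes, those with no co-bound peak, *Scap*, *Insig1*, *Insig2*, *Fads1* and *Fads2* were named after their values were seen. The genes and lists were chosen with earlier results of these data known. The code was tested on simulated data and placed 2000 of 2000 overlaps, 500 of 500 window assignments and 1200 of 1200 planted motif cases correctly. The tools were samtools 1.23.1 and Python 3.11.15 with numpy 2.4.6, pysam 0.24.0 and matplotlib 3.10.9. RNA-seq and knockout libraries were not analysed here, and 1 sequence is not reported here.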

Additional observations from a re-analysis of the deposited data

How the results depend on the processing

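Of 36 alternative settings, 27 left a count within 1.5 times the value reported or a share within its 95% interval. Apart from the SRE and DR4 shares with 1 mismatch given above, no count or share over the genome was made at these settings. The values below are therefore not set against all genes or all co-bound peaks. The triply bound share of the co-bound peaks, 61.4%, became 36.4% when 75% of the peak had to be covered and 40.9% when only HNF4α peaks with a score above the median were used, both stricter by construction. *Fasn* then also had no triply bound peak at either setting. At 75% this came from peak width, since its HNF4α peak lay wholly inside the co-bound peak and covered 74.5% of it. An HNF4α peak this narrow cannot cover 75% of a co-bound peak wherever it lies. The fall to 36.4% therefore partly reflects peak width and does not by itself show weak overlap. The number of genes with a co-bound promoter peak rose from 3 to 6 with a limit of 2 kb, which added *Acly*, *Me1* and *Mlxipl*. The HNF4α consensus share fell from 34.1% to 13.6% with 1 mismatch fewer, and the SRE share rose from 0 to 18.2% with 1 mismatch allowed. The C/EBP share fell from 9.09% to 0 without a mismatch. The E-box share fell from 6.82% to 2.27% in the central 100 bp. For DR4, in alternatives added after the data were seen, the share fell from 27.3% to 6.82% with 1 mismatch and to 11.4% in the central 100 bp. With windows of 10 or 100 kb upstream, the co-bound count was 37 or 58 in place of 44, and it was 36 with peaks nearest to another gene left out. With any contact counted, 10 genes in place of 8 had a triply bound peak, and 100 kb upstream gave 3 HDAC3-only peaks in place of 2. Counts of a few peaks per gene and the unknown depth limit what can be read from single genes. No paired analysis was possible because the lists are pooled over replicates.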
